A study of Setaria viridis with 15 samples.

Results

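The gene LOC117861538 of Setaria viridis is described in the authors' deposited tables as sucrose:sucrose 1-fructosyltransferase-like, abbreviated 1-SST-like here. It was taken by its identifier and is 1 of the 28032 genes counted in the series. No other gene in the table is described as a fructosyltransferase, and 0 genes are described as a fructan exohydrolase, so it is the only counted gene with a fructan-building name. It was chosen because of its levels in these libraries, so its own levels and fold changes are given as description, without a test. The name comes from similarity in annotation, and neither enzyme activity nor fructan content is among the data analysed here.

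Fructans are chains of fructose units built onto sucrose. Sucrose:sucrose 1-fructosyltransferase moves a fructosyl unit from a donor sucrose to an acceptor sucrose, which gives the trisaccharide kestose and free glucose and is the entry step of fructan synthesis. The enzyme belongs to the same glycoside hydrolase family as the acid invertases, which pass the fructosyl unit to water instead, and plant fructosyltransferases lie close in sequence to vacuolar acid invertases. Cool-season grasses such as wheat, barley and ryegrass store fructans in the vacuole, while warm-season C4 grasses are better known for storing starch and sucrose.

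Shoots of S. viridis, a C4 grass used as a laboratory model, were taken for RNA after 7 days in sealed plates that the seedlings shared with a bacterial isolate, with plant and bacteria on separate media. All plants were wild type (WT in the labels), and were moved to the plates as 5-day-old seedlings 2 days before the bacteria were added. There were 2 seedlings to a plate, grown under a 12 h photoperiod, and a small dish of LB medium inside it; the bacteria were applied to that dish as 20 µL of suspension. There were 4 libraries from shoots exposed to isolate AI2.2-A, 3 beside CTB P6B8, 4 beside MTS P5D6 and 4 from Control plates, which had the small dish but no bacterial inoculum. The series asks how the shoot transcriptome responds to bacterial volatile compounds. The labels call the libraries biological replicates but do not say how many plates each one pooled, so p-values here measure the spread between the labelled samples.

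Total counts per library lay between 18222557 and 23919167 beside AI2.2-A, between 17118899 and 25123025 beside CTB P6B8, between 16755755 and 19453085 beside MTS P5D6 and between 13852517 and 20556455 in Control. The test covered 20310 genes. AI2.2-A replicate 4 lay apart from the rest of its group. On the second principal component of log2 CPM it lay at -17.3, while its group's other libraries lay between -42.4 and -35.4. It was level there with CTB P6B8 replicate 3, at -17.0, the lowest of the 3 CTB P6B8 libraries, which were spread down from -4.63 with none standing alone. Some group counts, and the fold changes of 1-SST-like relative to Control, are also given without these 2 libraries. Other counts moved too: beside AI2.2-A, invertase genes that passed as higher and lower went from 5 and 5 to 7 and 5. A count given without such a value is not thereby unchanged.

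The 1-SST-like transcript was lower beside each isolate than in Control, and lowest beside MTS P5D6. Beside AI2.2-A it stood at 91.7, 99.2, 88.0 and 64.85 CPM (counts scaled to library size) in replicates 1 to 4. Beside CTB P6B8 it stood at 139, 150 and 102 CPM. Beside MTS P5D6 it stood at 23.1, 14.1, 14.9 and 12.95 CPM. In Control it stood at 399, 317, 344 and 308 CPM. No group overlapped another with TMM scaling. The levels ran from MTS P5D6 at the low end through AI2.2-A and CTB P6B8 to Control at the high end. As a share of total counts, AI2.2-A replicate 2 (0.01062%) lay above CTB P6B8 replicate 3 (0.01054%), so these groups overlapped there.

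**Figure D1:**
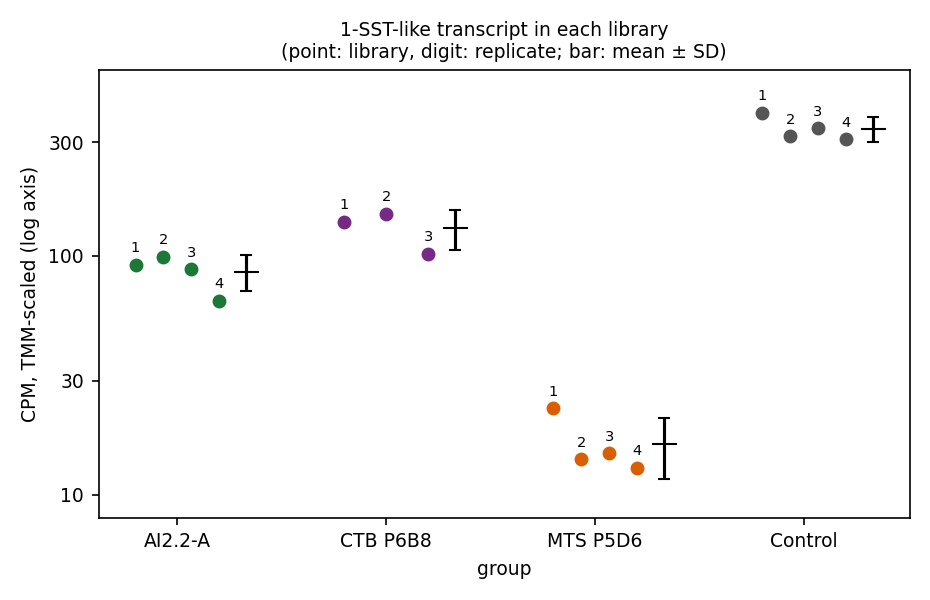
Each point is the 1-SST-like level of 1 library in TMM-scaled CPM on a log axis, grouped by AI2.2-A, CTB P6B8, MTS P5D6 and Control, with the group mean ± SD beside the points. The 4 MTS P5D6 libraries lie between 12.95 and 23.1 CPM and the 4 Control libraries between 308 and 399 CPM, with the other groups between them.

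The raw counts behind these levels were large enough for counting error to be small. The transcript had 2297, 2161, 1691 and 1351 counts beside AI2.2-A, 3113, 2604 and 2648 beside CTB P6B8, 421, 259, 289 and 210 beside MTS P5D6, and 5908, 5834, 4500 and 5958 in Control. The group means were 85.9 ± 14.8 CPM beside AI2.2-A, 131 ± 25.0 CPM beside CTB P6B8, 16.3 ± 4.62 CPM beside MTS P5D6 and 342 ± 40.8 CPM in Control (SD, n = 4, 3, 4 and 4). The coefficient of variation was 17.2% beside AI2.2-A, 19.1% beside CTB P6B8, 28.4% beside MTS P5D6 and 11.9% in Control, so the libraries of the lowest group differed most in proportion.

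Within MTS P5D6, replicate 1 was the highest. Its 95% interval for counting error alone, 20.9 to 25.4 CPM (exact Poisson), lay above those of the other 3 libraries, which reached at most 16.7 CPM. Within AI2.2-A, replicate 4 was the lowest, with an interval of 61.4 to 68.4 CPM, against 83.9 to 103.5 CPM over the other 3 libraries. Within CTB P6B8, replicate 3 was the lowest, with an interval of 98.5 to 106 CPM. These intervals cover counting error only.

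AI2.2-A and CTB P6B8 were the closest neighbours in the order of levels. The lowest CTB P6B8 library was 1.03 times the highest AI2.2-A library, and the counting intervals of these 2 libraries, 95.1 to 103.5 CPM for AI2.2-A replicate 2 and 98.5 to 106 CPM for CTB P6B8 replicate 3, overlapped. Their group means differed by more than the SD of either group, but at the edge the groups met within counting error. Every other pair of groups was separated by a factor of at least 2.05 between the nearest libraries, the value for CTB P6B8 and Control.

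Expressed as fitted log2 fold changes from the model across all genes, the level was -1.99 ± 0.17 (SE) beside AI2.2-A relative to Control, or 3.98-fold lower. Beside CTB P6B8 it was -1.39 ± 0.18, or 2.62-fold lower. Beside MTS P5D6 it was -4.39 ± 0.19, or 21-fold lower. Between isolates it was -0.60 ± 0.18 for AI2.2-A relative to CTB P6B8, 2.40 ± 0.18 for AI2.2-A relative to MTS P5D6 and 3.00 ± 0.19 for CTB P6B8 relative to MTS P5D6. Without AI2.2-A replicate 4 and CTB P6B8 replicate 3, a choice made after seeing the data, the values relative to Control were -1.85 beside AI2.2-A, -1.19 beside CTB P6B8 and -4.35 beside MTS P5D6. The 3 comparisons with Control share the same 4 Control libraries. In whole shoots, fewer cells that carry a transcript and less of it per cell cannot be told apart. Whether reads were counted by strand, and how reads shared with near-identical copies were counted, is not stated in the labels or headers.

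Markers of green leaf tissue summed to less beside each isolate than in Control, as 1-SST-like did, but their ranges overlapped between isolates. All 25 genes of the list (small subunits of ribulose bisphosphate carboxylase, chlorophyll a-b binding proteins and C4 cycle enzymes) had counts. Their summed level was 27880 to 33380 CPM beside AI2.2-A, 25960 to 29930 beside CTB P6B8, 25070 to 27960 beside MTS P5D6 and 41830 to 45760 in Control. By edgeR's quasi-likelihood test over all genes (Benjamini-Hochberg adjusted p under 0.05), 3 were higher and 7 lower beside AI2.2-A, 3 and 10 beside CTB P6B8, and 4 and 16 beside MTS P5D6. The shares called in either direction were 40%, 52% and 80%, beside 47.7%, 45.4% and 52.2% of all tested genes. Of all tested genes, 24.3%, 22.7% and 28.3% were called lower. Without AI2.2-A replicate 4 and CTB P6B8 replicate 3 the CTB P6B8 counts were 1 and 9. Root markers were also detected at a low level: the 6 genes summed to 84.2 to 151 CPM beside AI2.2-A, 122 to 181 beside CTB P6B8, 69.6 to 124 beside MTS P5D6 and 166 to 186 in Control, and of 4 tested, 0 were higher, while 2 were lower beside AI2.2-A, 2 beside CTB P6B8 and 4 beside MTS P5D6. With relative log expression scaling, 3 root markers were lower beside MTS P5D6. Without AI2.2-A replicate 4 and CTB P6B8 replicate 3, 3 were lower there and 1 beside AI2.2-A. The part of either tissue in the level of 1-SST-like was not tested.

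In the authors' deposited table the log2 fold changes of this gene are -1.92 (SE 0.16) for AI2.2-A over Control, -1.32 (SE 0.18) for CTB P6B8 over Control and -4.29 (SE 0.17) for MTS P5D6 over Control. The authors' deposited table also gives 0.61 (SE 0.19) for CTB P6B8 over AI2.2-A, the opposite direction to the pair above, 2.37 (SE 0.18) for AI2.2-A over MTS P5D6 and 2.98 (SE 0.19) for CTB P6B8 over MTS P5D6.

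Against the whole transcriptome, the position of the gene depended on the isolate. Beside MTS P5D6, 4 of the 20310 tested genes had a more negative log2 fold change. They were a pair of HKT8-like cation transporters (LOC117858061 and LOC117855466), an ankyrin repeat protein (LOC117847556) and NADH nitrate reductase (LOC117860413), the entry enzyme of nitrate assimilation. Of these, LOC117855466 rested on 1 count over the MTS P5D6 libraries and 62 over Control, and LOC117847556 on 2 and 63. Beside AI2.2-A, 68 genes lay lower than 1-SST-like, and beside CTB P6B8, 208.

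Among the 2689 genes with a mean log2 CPM of at least that of 1-SST-like (6.42, itself included), only nitrate reductase had a more negative value beside AI2.2-A and beside MTS P5D6. A gene's mean takes in its low libraries, so this cutoff can leave out genes of like Control level that fell further. Nitrate reductase stood at 51.7 ± 33.5 CPM beside AI2.2-A, 28.9 ± 6.51 beside CTB P6B8, 39.2 ± 16.0 beside MTS P5D6 and 853 ± 84.8 in Control (SD, n = 4, 3, 4 and 4). Beside CTB P6B8, 7 genes of that level lay lower, among them nitrate reductase and ferredoxin-dependent glutamate synthase (LOC117843736), a later enzyme of nitrogen assimilation, at -1.86. Nitrate reductase was low beside all 3 isolates, with log2 fold changes of -4.04, -4.88 and -4.45 for AI2.2-A, for CTB P6B8 and for MTS P5D6, whereas the values of 1-SST-like for the same isolates spanned -1.39 to -4.39.

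**Figure D2:**
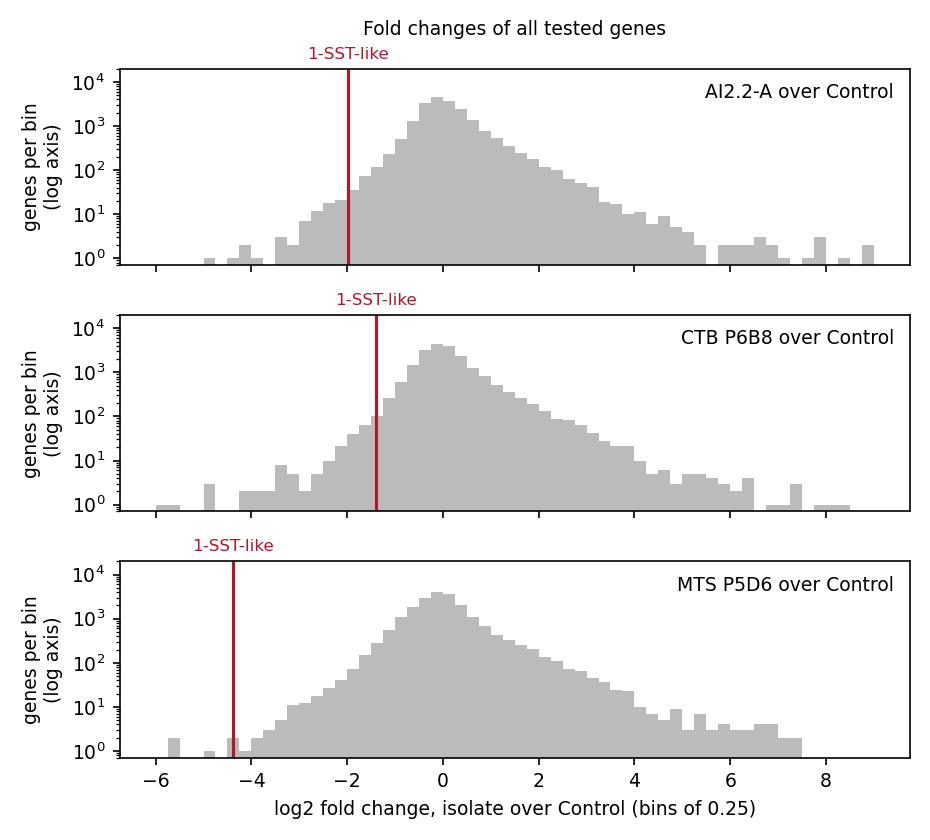
Each panel is a histogram of the log2 fold changes of all 20310 tested genes in bins of 0.25, for AI2.2-A, for CTB P6B8 and for MTS P5D6 over Control, with a log axis for the number of genes. The red line marks 1-SST-like at -1.99, -1.39 and -4.39, and 4 genes lie left of it in the MTS P5D6 panel.

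Few genes had all 4 groups apart. With TMM scaling, 117 of the 20310 tested genes had groups whose libraries did not overlap in any pair, or 0.576%. In 5 of these, 1-SST-like included, the levels ran MTS P5D6, AI2.2-A, CTB P6B8, Control from low to high. For 1-SST-like, the gap between AI2.2-A and CTB P6B8 did not hold as a share of total counts. The others in that order were a BTB/POZ domain protein (LOC117837401), the heavy metal-associated isoprenylated plant protein 35-like gene (LOC117839283) and the uncharacterized LOC117852708 and LOC117861908. Their log2 fold changes beside MTS P5D6 ran from -0.39 to -1.0, against -4.39 for 1-SST-like. The most frequent order among the 117 genes had MTS P5D6 highest and Control lowest, with CTB P6B8 above AI2.2-A between them (26 genes).

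To set 1-SST-like beside a relative that does not depend on scaling between libraries, its counts were divided by those of beta-fructofuranosidase 1 (LOC117865261) in the same library. That gene is named after a soluble acid invertase of maize. The ratio was 0.829 to 2.26 beside AI2.2-A, 0.903 to 1.57 beside CTB P6B8, 0.114 to 0.227 beside MTS P5D6 and 4.62 to 6.71 in Control. The MTS P5D6 and Control ratios did not overlap those of any other group, while the AI2.2-A and CTB P6B8 ratios overlapped. The ratio also carries changes of the invertase itself, which was called higher beside CTB P6B8 and MTS P5D6, as given below. The TMM-scaled levels of 1-SST-like alone did not overlap between AI2.2-A and CTB P6B8, while its shares of total counts did. The ratio compares libraries and says nothing of which gene is more abundant, since transcript lengths were not used.

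The invertases, which split sucrose into glucose and fructose, moved in both directions while 1-SST-like was low beside every isolate. The same test and threshold over all 20310 genes define the calls given here. Among all tested genes 47.7% were called beside AI2.2-A, 45.4% beside CTB P6B8 and 52.2% beside MTS P5D6, each relative to Control, so a share near these is no result about a list. By direction, 23.4% were called higher beside AI2.2-A, 22.6% beside CTB P6B8 and 23.9% beside MTS P5D6, and 24.3%, 22.7% and 28.3% were called lower. In numbers, 4743 genes were higher and 4944 lower beside AI2.2-A, 4600 and 4617 beside CTB P6B8, and 4847 and 5751 beside MTS P5D6. Scaling by total counts alone shifted the all-gene median by 0.131 beside AI2.2-A, 0.101 beside CTB P6B8 and 0.0327 beside MTS P5D6, and gave 6497 and 3116 calls beside AI2.2-A, 5870 and 3325 beside CTB P6B8, and 5201 and 5328 beside MTS P5D6. Of 16 invertases, 14 were tested. Beside AI2.2-A 5 were higher and 5 lower, beside CTB P6B8 4 and 4, and beside MTS P5D6 4 and 3. The median log2 fold change of the list was 0.18, -0.09 and -0.06 for AI2.2-A, for CTB P6B8 and for MTS P5D6, against -0.0047, 0.0025 and -0.05 over all tested genes. Scaled by total counts alone, the invertase counts beside AI2.2-A were 6 higher and 2 lower.

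The acid invertases are the nearest relatives of 1-SST-like in this list. Beta-fructofuranosidase 1 (LOC117865261) stood at 40.5, 59.0, 55 and 78.3 CPM beside AI2.2-A, at 88.9, 166 and 84.4 CPM beside CTB P6B8, at 102, 82.0, 91.1 and 113 CPM beside MTS P5D6 and at 59.4, 68.6, 70.5 and 61.8 CPM in Control. It rose beside CTB P6B8 (log2 fold change 0.80 ± 0.22, edgeR adjusted p = 0.00692) and beside MTS P5D6 (0.58 ± 0.20, edgeR adjusted p = 0.0251), a call lost under 5 of 25 other settings. Beside AI2.2-A the value was -0.16 ± 0.20 (edgeR adjusted p = 0.534), and the AI2.2-A libraries overlapped Control. Without CTB P6B8 replicate 2, which held the highest level, the CTB P6B8 value was 0.41 and its call was lost (edgeR adjusted p = 0.0792).

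Cell wall invertases, bound outside the plasma membrane, split sucrose in the apoplast. The cell wall isozyme-like beta-fructofuranosidase (LOC117866337) rose beside every isolate. Its level was 51.7 ± 16.9 CPM beside AI2.2-A and 28.0 ± 6.96 CPM in Control (SD, n = 4 each). Its log2 fold change was 0.88 ± 0.24 beside AI2.2-A, 1.52 ± 0.26 beside CTB P6B8 and 1.93 ± 0.25 beside MTS P5D6, the reverse of the direction of 1-SST-like. The insoluble isoenzyme 2-like gene LOC117862780 rose beside all 3 as well (log2 fold changes 1.90, 1.21 and 0.80), and had 1.09 ± 0.157 CPM in Control (SD, n = 4), although without MTS P5D6 replicate 2 its MTS P5D6 call was lost (edgeR adjusted p = 0.137).

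A second insoluble isoenzyme 2-like gene (LOC117862502) rose beside AI2.2-A (0.81 ± 0.18) and fell beside MTS P5D6 (-0.79 ± 0.19). Insoluble isoenzyme 4 (LOC117857550) was called higher beside AI2.2-A alone (0.28 ± 0.11, edgeR adjusted p = 0.038), a call lost under 5 of 25 other settings. The isoenzyme 7-like gene LOC117849757 was called lower beside MTS P5D6 (-0.31 ± 0.12, edgeR adjusted p = 0.0423), a call lost under 13 of 25. Its namesake LOC117849759 passed the test with no isolate. The isoenzyme 7-like LOC117847639 and the isoenzyme 3-like LOC117865056 had at most 0.405 CPM in any library and were not tested.

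Neutral and alkaline invertases, from an unrelated enzyme family inside the cell, made up 7 of the tested genes, and 6 of these were called lower beside at least 1 isolate. The share of all tested genes called lower beside at least 1 isolate was not computed, so this count is no result about the family. For LOC117838544, LOC117857347 and LOC117865619 the AI2.2-A calls were lost with total counts, and for LOC117862668 the CTB P6B8 call was lost without CTB P6B8 replicate 3 (edgeR adjusted p = 0.12). The chloroplastic neutral/alkaline invertase 3 (LOC117852690) fell beside every isolate, at 123 ± 7.57 CPM beside AI2.2-A, 104 ± 9.3 beside CTB P6B8, 125 ± 15.2 beside MTS P5D6 and 173 ± 5.25 in Control (SD, n = 4, 3, 4 and 4). The mitochondrial-like invertase 1 (LOC117857440) fell beside AI2.2-A (-0.91 ± 0.17) and CTB P6B8 (-0.66 ± 0.18). Beside MTS P5D6, where 1-SST-like was lowest, its value was -0.26 ± 0.16 (edgeR adjusted p = 0.193). The probable alkaline/neutral invertase F (LOC117833742) rose beside all 3 isolates, by 0.80, 0.76 and 0.69 on the log2 scale. The 2 putative invertase inhibitors (LOC117849924 and LOC117849907), named for proteins that block acid invertases, had at most 0.288 CPM in any library and were not tested.

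**Figure D3:**
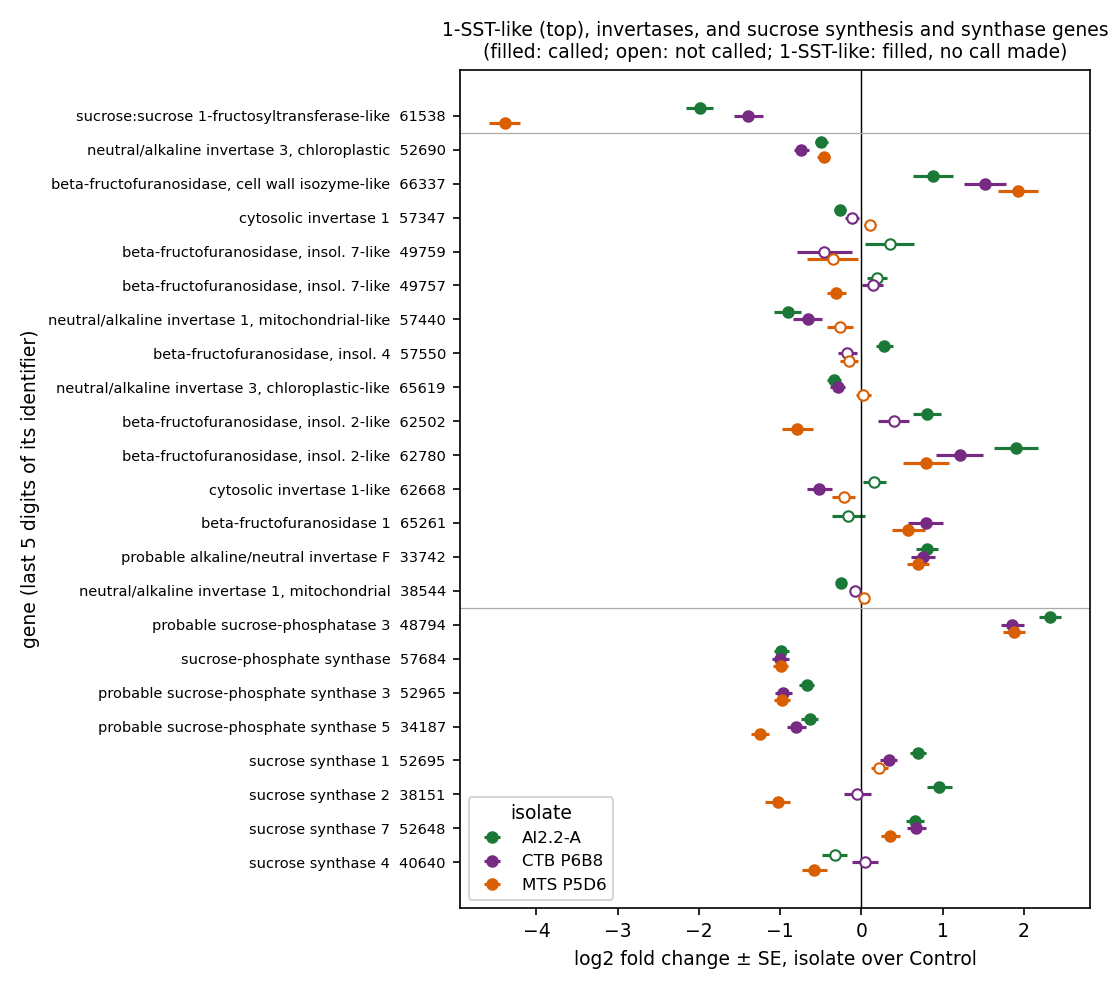
Log2 fold changes ± SE relative to Control are shown for 1-SST-like at the top, the 14 tested invertases, and the named sucrose synthesis and sucrose synthase genes, for AI2.2-A, for CTB P6B8 and for MTS P5D6. Invertases lie on both sides of 0, between -0.91 and 1.93, while 1-SST-like lies at -1.39 or lower for all 3 isolates.

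Sucrose is the substrate of 1-SST, and with TMM scaling of all 15 libraries most genes for making it were called lower beside each isolate. The all-gene shares called lower were 24.3%, 22.7% and 28.3% for AI2.2-A, for CTB P6B8 and for MTS P5D6. Of 8 sucrose synthesis genes, 1 was higher and 5 lower with each of the 3 isolates, and the median log2 fold changes were -0.33, -0.58 and -0.56 for AI2.2-A, for CTB P6B8 and for MTS P5D6. Scaled by total counts, the AI2.2-A counts were 2 higher and 3 lower. Without AI2.2-A replicate 4 and CTB P6B8 replicate 3 the AI2.2-A counts were 1 and 4. The MTS P5D6 counts were 1 and 4 with total counts, with relative log expression scaling and without those 2 libraries. Sucrose-phosphate synthase (LOC117857684), which joins fructose 6-phosphate to a glucose donor, had 256, 281, 244 and 315 CPM beside AI2.2-A, 260, 256 and 297 CPM beside CTB P6B8, 257, 285, 247 and 300 CPM beside MTS P5D6, and 545, 480, 567 and 576 CPM in Control. Every isolate library lay below every Control library, and the log2 fold changes were alike at -0.985 ± 0.095, -1.0 ± 0.10 and -0.99 ± 0.10 for AI2.2-A, for CTB P6B8 and for MTS P5D6.

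Probable sucrose-phosphate synthase 5 (LOC117834187) fell most beside MTS P5D6. Its log2 fold change was -1.25 ± 0.11 beside MTS P5D6, -0.80 ± 0.12 beside CTB P6B8 and -0.64 ± 0.11 beside AI2.2-A. It was also higher beside AI2.2-A than beside MTS P5D6 (0.61 ± 0.11, edgeR adjusted p = 0.000325) and higher beside CTB P6B8 than beside MTS P5D6 (0.44 ± 0.12, edgeR adjusted p = 0.0113). Probable sucrose-phosphate synthase 3 (LOC117852965) fell (-0.67, -0.96 and -0.98) for AI2.2-A, for CTB P6B8 and for MTS P5D6. The member that rose was probable sucrose-phosphatase 3 (LOC117848794), which removes the phosphate in the last step, at 53.1 ± 3.19 CPM beside AI2.2-A, 38.4 ± 8.54 beside CTB P6B8, 38.9 ± 6.09 beside MTS P5D6 and 10.6 ± 1.12 in Control (SD, n = 4, 3, 4 and 4).

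Sucrose synthases, which split sucrose reversibly into fructose and a nucleotide sugar, differed between isolates. Of 5 genes, 4 were higher and 0 lower beside AI2.2-A, 2 and 0 beside CTB P6B8, and 1 and 2 beside MTS P5D6. Beside the same isolates 23.4%, 22.6% and 23.9% of all tested genes were called higher, and 24.3%, 22.7% and 28.3% lower. The list medians were 0.66, 0.24 and -0.06. The MTS P5D6 counts were 2 and 2 with total counts or relative log expression scaling. Sucrose synthase 2 (LOC117838151) had 1034, 976, 817 and 643 CPM beside AI2.2-A, 401, 410 and 481 CPM beside CTB P6B8, 183, 265, 177 and 248 CPM beside MTS P5D6, and 471, 365, 458 and 488 CPM in Control. AI2.2-A libraries lay above all others, MTS P5D6 libraries below all others, and CTB P6B8 libraries among Control. It rose beside AI2.2-A (0.96 ± 0.16) and fell beside MTS P5D6 (-1.03 ± 0.16), and the difference between these isolates passed the test (1.99 ± 0.16, edgeR adjusted p = 6.67e-07). Sucrose synthase 7 (LOC117852648) rose beside all 3, by 0.66, 0.68 and 0.36.

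The raffinose family sugars are another way of extending sucrose, by galactose rather than fructose units. Of 9 tested genes named for galactinol, raffinose or stachyose, 1 was higher and 4 lower beside AI2.2-A. The counts were 2 and 2 beside CTB P6B8, and 4 and 1 beside MTS P5D6. Whether each gene makes or breaks down these sugars was not tested. Over all tested genes 23.4%, 22.6% and 23.9% were called higher and 24.3%, 22.7% and 28.3% lower, in the same order of isolates. The list medians were -0.41, 0.26 and 0.26. With total counts the AI2.2-A counts were 1 and 2. The probable galactinol--sucrose galactosyltransferase 2 LOC117846586 fell beside every isolate (-1.21, -0.81 and -1.55 on the log2 scale), whereas galactosyltransferase 6 (LOC117852819) fell beside AI2.2-A (-0.41 ± 0.13, a call lost under 4 of 25 other settings) and rose beside MTS P5D6 (0.66 ± 0.14). Its difference between AI2.2-A and MTS P5D6 was -1.07 ± 0.14 (edgeR adjusted p = 2.07e-05).

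Hexose kinases take up the glucose and fructose that sucrose cleavage sets free. Of 20 tested genes 11 were higher and 3 lower beside AI2.2-A, 7 and 3 beside CTB P6B8, and 5 and 3 beside MTS P5D6. Among all tested genes the shares called higher were 23.4%, 22.6% and 23.9%, and those called lower 24.3%, 22.7% and 28.3%. The list medians were 0.27, 0.03 and -0.04. The search pattern also took in 9 phosphofructokinases, which act later in glycolysis; for the remaining 11 genes the counts were 6 and 2, 3 and 3, and 2 and 3. With total counts the CTB P6B8 counts over the 20 genes were 8 and 1, and without AI2.2-A replicate 4 and CTB P6B8 replicate 3 they were the same. Hexokinase-7 (LOC117848900) rose beside every isolate and was highest where 1-SST-like was lowest, at 31.0 ± 7.60 CPM beside AI2.2-A, 49.5 ± 15.3 beside CTB P6B8, 72.5 ± 6.29 beside MTS P5D6 and 17.3 ± 3.11 in Control (SD, n = 4, 3, 4 and 4). Fructokinase-2 (LOC117860429) fell beside MTS P5D6 (-0.76 ± 0.11) and was called higher beside AI2.2-A (0.30 ± 0.11), a call lost under 4 of 25 other settings.

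Starch is the main alternative store to fructan. Of 18 starch synthesis genes 2 were higher and 8 lower beside AI2.2-A, 1 and 10 beside CTB P6B8, and 0 and 10 beside MTS P5D6. Among all tested genes 24.3%, 22.7% and 28.3% were called lower with these isolates. The list medians were -0.26, -0.29 and -0.36. Soluble starch synthase 2-1 (LOC117838981), which lengthens the glucan chains, fell beside all 3 isolates, at 37.0 ± 4.15 CPM beside AI2.2-A, 36.7 ± 4.98 beside CTB P6B8, 41.9 ± 4.82 beside MTS P5D6 and 79.9 ± 3.39 in Control (SD, n = 4, 3, 4 and 4). Starch synthase 3 (LOC117863422) fell beside all 3 (-0.63, -1.12 and -0.98). With total counts, the CTB P6B8 counts of the list were 3 and 8.

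Genes for breaking starch down went in both directions. Of 29 tested genes 5 were higher and 10 lower beside AI2.2-A, 9 and 6 beside CTB P6B8, and 14 and 6 beside MTS P5D6. All tested genes also went both ways, with 23.4%, 22.6% and 23.9% called higher and 24.3%, 22.7% and 28.3% lower. The list medians were -0.05, 0.09 and 0.30. With total counts they were 7 and 7 for AI2.2-A and 11 and 3 for CTB P6B8, and without AI2.2-A replicate 4 and CTB P6B8 replicate 3 the CTB P6B8 counts were 11 and 2. Alpha-glucan water dikinase (LOC117852289), which phosphorylates starch at the start of breakdown, had 185 to 248 CPM beside AI2.2-A, 231 to 263 CPM beside CTB P6B8, 323 to 344 CPM beside MTS P5D6 and 186 to 199 CPM in Control. It rose beside CTB P6B8 (0.36 ± 0.08) and MTS P5D6 (0.80 ± 0.08), and had 0.16 ± 0.08 beside AI2.2-A (edgeR adjusted p = 0.108). The alpha-amylase isozyme 3D-like gene (LOC117860059) fell beside AI2.2-A (-1.80 ± 0.35) and had values of -0.76 ± 0.37 beside CTB P6B8 and 0.30 ± 0.33 beside MTS P5D6 that did not pass the test.

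Transport of sucrose and storage of sugars in the vacuole, where fructan is made in other grasses, was represented by 27 tested genes. The search pattern also took in protein SWEETIE (LOC117835346), which is not named as a transporter. It is among the genes called lower beside every isolate, although its AI2.2-A call was lost with total counts. Beside AI2.2-A 4 were higher and 9 lower, beside CTB P6B8 4 and 6, and beside MTS P5D6 1 and 8. The all-gene shares were 23.4%, 22.6% and 23.9% called higher, and 24.3%, 22.7% and 28.3% called lower. The list medians were -0.16, -0.07 and -0.13. Scaled by total counts, the AI2.2-A counts were 7 and 7. The sugar transporter ERD6-like 16 (LOC117838946), of a family that includes vacuolar sugar exporters, fell beside all 3 (-1.08, -1.27 and -1.17). The SWEET13-like gene LOC117850592, of a family of sucrose exporters that feed the phloem, had 117 ± 26.5 CPM beside AI2.2-A, 112 ± 9.21 beside CTB P6B8, 80.0 ± 12.1 beside MTS P5D6 and 161 ± 9.41 in Control (SD, n = 4, 3, 4 and 4). A near namesake (LOC117850683) fell beside AI2.2-A (-0.93 ± 0.11) and CTB P6B8 (-0.48 ± 0.12) and had -0.11 ± 0.11 beside MTS P5D6 (edgeR adjusted p = 0.401).

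**Figure D4:**
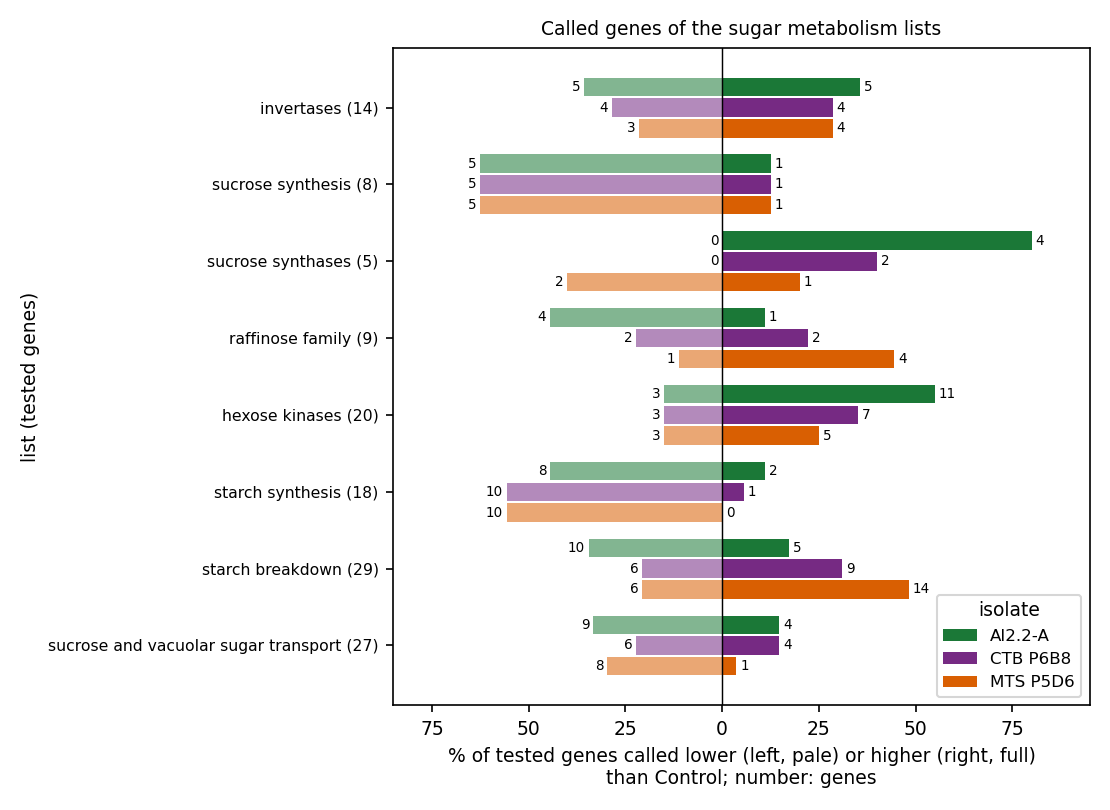
For each list of sugar metabolism genes, bars give the percentage of tested genes called higher (right) or lower (left) than Control beside each of the 3 isolates, and the numbers are the genes called. Sucrose synthesis and starch synthesis have more genes lower than higher with every isolate, at 5 of 8 and 8 to 10 of 18, while invertases are split.

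Over all these lists, which hold 143 genes besides 1-SST-like, 130 were tested. Beside AI2.2-A 33 were higher and 44 lower, beside CTB P6B8 30 and 36, and beside MTS P5D6 30 and 38. The medians over these genes were -0.05, -0.04 and -0.10, beside the all-gene medians of -0.0047, 0.0025 and -0.05. The share called was 59.2%, 50.8% and 52.3%, beside 47.7%, 45.4% and 52.2% of all tested genes. Scaled by total counts, the counts were 43 and 30 beside AI2.2-A and 38 and 28 beside CTB P6B8. Without AI2.2-A replicate 4 and CTB P6B8 replicate 3 the counts were 35 and 45, 32 and 27, and 33 and 33. Among the 116 list genes compared with it by correlation, LOC117850592 had a Pearson r of 0.908 with 1-SST-like and LOC117852289 one of -0.906, and the others lay between -0.9 and 0.9. Of all compared genes 0.958% reached 0.9, a share close to that of 1 in 116.

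Between isolates, 10.4% of all genes were called for AI2.2-A relative to CTB P6B8 (4.53% higher and 5.86% lower), 45.2% for AI2.2-A relative to MTS P5D6 and 26.3% for CTB P6B8 relative to MTS P5D6. Of the 130 list genes, 14 were higher and 20 lower beside AI2.2-A than beside CTB P6B8, 44 higher and 38 lower beside AI2.2-A than beside MTS P5D6, and 24 higher and 12 lower beside CTB P6B8 than beside MTS P5D6. Without AI2.2-A replicate 4 and CTB P6B8 replicate 3, the first of these pairs gave 8 and 30 and the last 18 and 6, and with total counts the last gave 27 and 4. For CTB P6B8 relative to MTS P5D6, 10 of all tested genes had a more positive log2 fold change than the 3.00 of 1-SST-like. None of them had as high a mean log2 CPM, a mean that takes in each gene's low libraries.

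The genes whose levels ran most like 1-SST-like were sought by Pearson correlation of log2 CPM over the 15 libraries among 13785 genes. The points share the 4 groups, and r is given as a description. The 6 named genes with the highest r were a MYBS2-like transcription factor (LOC117840699, r = 0.971), metallothionein-like protein 2C (LOC117850686, 0.970), the homeobox-leucine zipper protein HOX29-like (LOC117857377, 0.968), a chloroplastic malate dehydrogenase-like gene (LOC117842850, 0.966), a loricrin-like gene (LOC117864511, 0.955) and the heavy metal-associated isoprenylated plant protein 35-like gene (LOC117839283, 0.954). In all, 132 genes had r of at least 0.9 and 133 had r of at most -0.9. After group means were removed, so that only differences between replicates were left, the r of the 6 genes ran from 0.376 to 0.689.

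The changes of these 6 genes were smaller than that of 1-SST-like. MYBS2-like, named after a rice factor that binds a sugar-responsive promoter element, had 65.0 to 71.9 CPM beside AI2.2-A, 66.6 to 84.4 CPM beside CTB P6B8, 41.6 to 50.0 CPM beside MTS P5D6 and 81.2 to 85.7 CPM in Control. Its log2 fold change beside MTS P5D6 was -0.90 ± 0.08, against -4.39 for 1-SST-like. The call of MYBS2-like beside AI2.2-A (-0.29 ± 0.08) was lost with total counts (edgeR adjusted p = 0.101). The metal-binding metallothionein-like protein 2C fell to 483 ± 50.3 CPM beside MTS P5D6, against 1173 ± 97.1 CPM in Control (SD, n = 4 each). HOX29-like, of a family of plant transcription factors, had the most negative value of the 6 beside MTS P5D6, at -1.68 ± 0.14, with 2.22 to 3.45 CPM there and 8.84 to 11.2 CPM in Control.

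**Figure D5:**
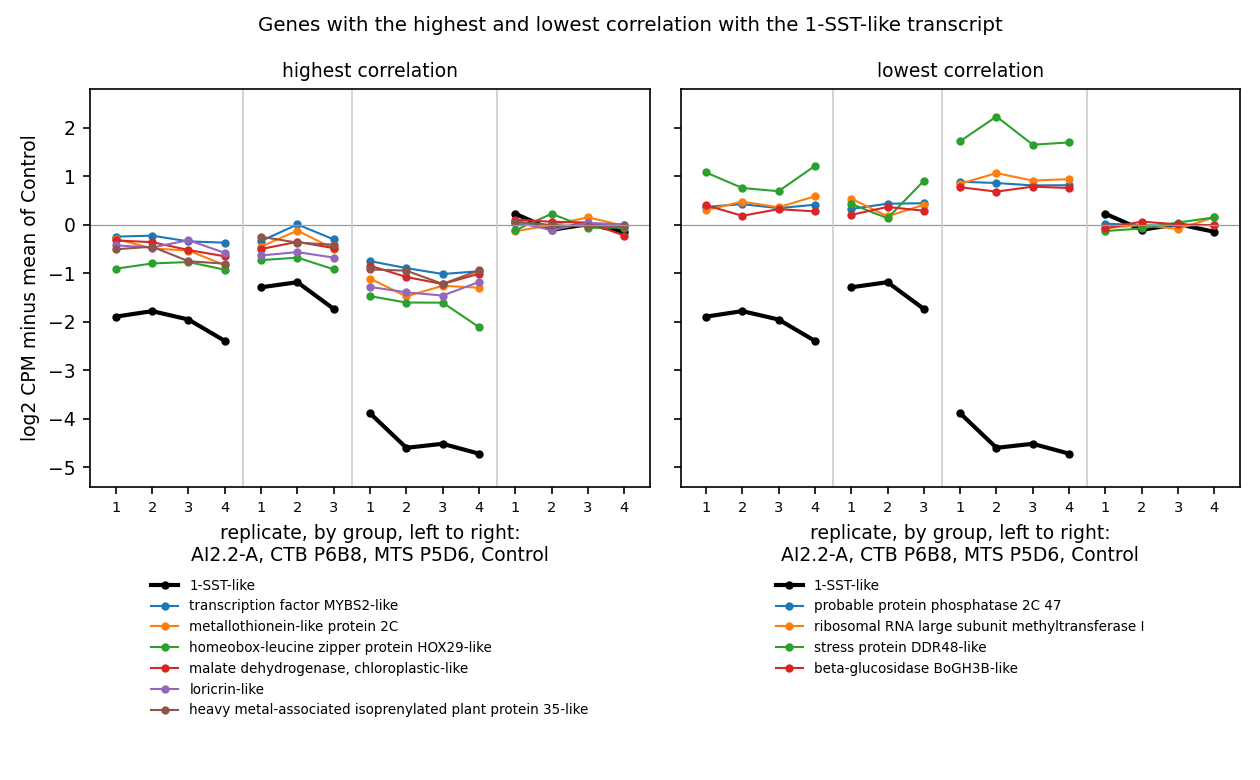
Lines join the libraries of each group for 1-SST-like (black) and the 6 genes with the highest (left) and the 4 with the lowest (right) Pearson correlation, as log2 CPM minus the mean of Control. Beside MTS P5D6 the fitted log2 fold changes of the 6 genes at left run from -0.90 to -1.68, against -4.39 for 1-SST-like.

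The genes that ran most opposite were probable protein phosphatase 2C 47 (LOC117840857, r = -0.967), ribosomal RNA large subunit methyltransferase I (LOC117849674, -0.964), the stress protein DDR48-like gene (LOC117864703, -0.963) and beta-glucosidase BoGH3B-like (LOC117837885, -0.961). With group means removed, their r was 0.139, -0.540, -0.588 and 0.006 in the same order, so LOC117840857 and LOC117837885 did not run opposite within groups. Protein phosphatase 2C 47, of a family that removes phosphate from signalling proteins, had 14.3 to 15.2 CPM beside AI2.2-A, 14.2 to 15.4 CPM beside CTB P6B8, 19.8 to 20.9 CPM beside MTS P5D6 and 11.2 to 11.5 CPM in Control. DDR48-like rose beside MTS P5D6 by 1.84 ± 0.17, with 281 to 420 CPM against 81.9 to 99.5 CPM in Control. All 4 were called higher beside every isolate, although the CTB P6B8 call of DDR48-like was lost under 4 of 25 other settings (edgeR adjusted p = 0.128 without CTB P6B8 replicate 3) and that of LOC117849674 under 1 (edgeR adjusted p = 0.0538 without CTB P6B8 replicate 1).

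The genes beside 1-SST-like on the chromosome were read from the reference gene table of the assembly Setaria_viridis_v4.0, which is used here for the order of genes only. None of the 3 tested neighbours was called lower beside any isolate. Of all tested genes 24.3% were called lower beside AI2.2-A, 22.7% beside CTB P6B8 and 28.3% beside MTS P5D6. For so few neighbours the count is no result about the region. The next gene on one side, a BAG family chaperone regulator 7-like gene (LOC117849171), was slightly higher beside AI2.2-A (0.27 ± 0.08) and CTB P6B8 (0.24 ± 0.08, a call lost under 7 of 25 other settings) and had -0.02 ± 0.08 beside MTS P5D6. Beyond it, the L-lactate dehydrogenase A-like gene (LOC117849186), of an enzyme of lactic fermentation, rose beside all 3 isolates, with 14 to 40 counts in each isolate library and 5 counts over the 4 Control libraries. The L-lactate dehydrogenase-like gene LOC117849180 rose beside AI2.2-A (1.14 ± 0.28). On the other side, a lectin-domain receptor kinase (LOC117834175) had at most 0.310 CPM in any library, and LOC117845458 and LOC117846892 had at most 0.052 CPM.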

How the data were processed

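RNA of 15 shoot libraries (4 with AI2.2-A, 3 with CTB P6B8, 4 with MTS P5D6, 4 Control) was sequenced from TruSeq Stranded Total RNA libraries, per the labels' protocols. The authors deposited raw counts per gene, and log2 fold changes with standard errors for each of 6 pairwise comparisons. Per the submitters' processing notes, FastQC, Trimmomatic, HISAT2, featureCounts and DESeq2 1.6.3 were used. Their roles, the genome build, the annotation and the strand setting were not given in those notes, the labels or the file headers. Of the 28032 gene identifiers, 26219 matched the reference gene table, which was used for the order of genes only, and 23214 had a description in the authors' tables.

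Counts were scaled with TMM, filtered with filterByExpr, and fitted with edgeR 4.0.16 (R 4.3.3; quasi-likelihood F test, 1 model of 4 groups) over 20310 genes, with Benjamini-Hochberg adjustment and a threshold of 0.05. Fold changes come from this fit, CPM values are TMM-scaled, and normalisation factors lay between 0.9412 and 1.071. Likeness is the Pearson correlation of log2 CPM (prior count 2) among genes with a mean log2 CPM of at least 1. The scripts were tested on simulated data. Alternatives were other scalings, filters and thresholds, DESeq2 1.42.0, limma-voom (limma 3.58.1), the compared groups alone, replicate blocks and leaving out libraries.

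Lists were matched on words in the descriptions. Named were every invertase and invertase inhibitor, up to 2 called genes per direction, list and isolate with the smallest p and a mean log2 CPM of at least 3, the 6 most and 4 least correlated genes with a description, and 3 neighbours on each side. Genes that lay lower than 1-SST-like or shared its order of groups were named after their values were seen. The members and lists were chosen with earlier results of these data known. Replicates within groups differed beyond counting noise (chi-square per degree of freedom 2.69 to 21.4 over 21 pairs), so none was counted as a repeat of another.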

Additional observations from a re-analysis of the deposited data

Results flagged for a closer look

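Among 204 groups of 4 libraries of the named genes, 13 held a library whose gap to the nearest other was over 0.829 of the group's range, or 6.37%, where chance gives about 1 in 20. The 1-SST-like transcript itself had no such library.

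In AI2.2-A replicate 2, glucose-1-phosphate adenylyltransferase large subunit 3 (LOC117849939) stood at 136 CPM against 158 to 162 CPM in the other libraries of the group. In the same library starch synthase 4 (LOC117848402) stood at 69.5 CPM against 80.2 to 82.3 CPM, protein SWEETIE (LOC117835346) at 102 CPM against 134 to 140 CPM, and the beta-amylase-like gene LOC117841976 at 614 CPM against 494 to 499 CPM. In AI2.2-A replicate 4, galactosyltransferase 1 (LOC117860594) stood at 789 CPM against 558 to 597 CPM.

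In MTS P5D6 replicate 2, the insoluble isoenzyme 2-like invertase LOC117862780 stood at 3.15 CPM against 1.36 to 1.65 CPM, isoamylase 1 (LOC117861210) at 13.6 CPM against 9.13 to 9.74 CPM, and DDR48-like (LOC117864703) at 420.2 CPM against 281 to 296 CPM. In MTS P5D6 replicate 3, sucrose synthase 7 (LOC117852648) stood at 32.9 CPM against 49.7 to 51.6 CPM, and the isoprenylated plant protein 35-like gene (LOC117839283) at 181 CPM against 219 to 222 CPM. In MTS P5D6 replicate 4, insoluble isoenzyme 4 (LOC117857550) stood at 10.1 CPM against 11.7 to 11.95 CPM.

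In Control replicate 2, the isoenzyme 7-like invertase LOC117849759 stood at 18.2 CPM against 7.08 to 7.69 CPM, and HOX29-like (LOC117857377) at 11.2 CPM against 8.84 to 9.20 CPM.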

How the results depend on the processing

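The log2 fold change of 1-SST-like kept its direction under every alternative run, from -2.07 to -1.85 for AI2.2-A over Control, -1.50 to -1.19 for CTB P6B8 over Control, -4.61 to -4.30 for MTS P5D6 over Control, -0.76 to -0.49 for AI2.2-A over CTB P6B8, 2.31 to 2.62 for AI2.2-A over MTS P5D6 and 2.86 to 3.22 for CTB P6B8 over MTS P5D6. Genes called in either direction, and genes called higher or lower over all lists pooled, stayed within 1.5 times under every alternative run for the 3 comparisons with Control and for AI2.2-A over MTS P5D6. By direction, all genes called lower beside AI2.2-A than in Control (4944) were 3116 with total counts, and single lists moved more, such as the invertases called lower there, 2 in place of 5. The other pairs did not, and the cause was not tested. Genes called for AI2.2-A over CTB P6B8 (2110) were 489 at an adjusted p under 0.01 and 871 with the groups compared alone. Leaving out 1 library gave 644 (without CTB P6B8 replicate 2) to 2464 (without AI2.2-A replicate 4), with 1020 without AI2.2-A replicate 1 and 1282 without AI2.2-A replicate 3. For CTB P6B8 over MTS P5D6 (5347) they were 2574 at 0.01, and 3345 (without CTB P6B8 replicate 3) to 5649 with 1 library left out. List genes higher with AI2.2-A than CTB P6B8 (14) were 1 at 0.01, 3 with the groups alone, 8 without both AI2.2-A replicate 4 and CTB P6B8 replicate 3, and 2 to 15 with 1 left out (2 without CTB P6B8 replicate 2, 6 without AI2.2-A replicate 1, 9 without AI2.2-A replicate 3, 7 without CTB P6B8 replicate 1 or 3). Lower ones (20) were 5, 11 and 30 under the same 3 settings and 4 to 30 with 1 left out (4 without CTB P6B8 replicate 2, 30 without AI2.2-A replicate 4, 13 without AI2.2-A or CTB P6B8 replicate 1, 11 without AI2.2-A replicate 3). List genes higher with CTB P6B8 than MTS P5D6 (24) were 10 at 0.01 and 15 (without CTB P6B8 replicate 2) to 26 with 1 left out. Lower ones (12) were 2 at 0.01, 4 with total counts, 19 with DESeq2, 6 without both libraries, and 5 to 17 with 1 left out (5 without CTB P6B8 replicate 3, 6 without CTB P6B8 replicate 1, 7 without MTS P5D6 replicate 2 or 4). The mean correlation of the 6 most alike genes, 0.964, was 0.923 by Spearman rank and 0.565 for deviations from group means. Leaving out both libraries together was chosen after seeing the data. Of 149 calls on named genes, 117 held under every alternative run, 32 were lost in at least 1, and 0 reversed.

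Replicate numbers did not pair the libraries: deviations from the group means of same-numbered libraries correlated at -0.22 to 0.22 over 21 pairs, 2 of them over 0.1, and other pairs at -0.31 to 0.39. With the numbers of the labels' descriptions as a replicate block, calls for CTB P6B8 over MTS P5D6 were 2786, with 12 list genes higher and 3 lower, and the MTS P5D6 call of sucrose synthase 7 (LOC117852648) was lost (edgeR adjusted p = 0.0655). The titles number the MTS P5D6 libraries differently, and with the title numbers as a block the counts above stayed within 1.5 times.

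With no transcript lengths, levels were not compared between genes, and the lowest genes, such as the untested invertases, could not be tested at this depth.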
